A study of Mus musculus with 6 samples.

Results

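The 32 genes described here make cholesterol and fatty acids or govern how much sterol a cell makes and keeps. They were chosen by symbol, as the rows of the deposited count tables that carry one of 32 listed names, and all 32 were found among the 32285 genes of each table. By role, 18 encode enzymes of sterol synthesis, 6 encode enzymes of fatty acid synthesis, 5 encode sterol sensors and the transcription factors they hold back, and 3 encode proteins that carry or export sterol. The listed name "sterol and fatty acid synthesis" therefore fits 24 of the 32 genes, and the other 8 act in sensing, carriage and efflux.

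The cells came from the tibialis anterior, the muscle at the front of the shin, of both hindlimbs of wildtype mice. The muscle was either uninjured, here day 0, or had been injured with cardiotoxin, a snake venom toxin that destroys muscle fibres, 1 or 3 days before. Cells were collected at ZT4 or ZT16, where ZT (zeitgeber time) counts the hours since the lights came on. The hour of injury is not given here. On days 1 and 3 the time of collection therefore cannot be told apart from the hour of injury or the hours since it. Living mononucleated cells, sorted to exclude those that took up propidium iodide, went into 1 droplet-based 3′ RNA library per day and time, which gives 6 libraries and 1 per group. Every group therefore shares the genotype and the sort, and the labels give no age, sex or number of animals. Large fibres with many nuclei are not in a suspension of mononucleated cells, although barcodes with fibre RNA were found, as described below.

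Cholesterol is built from acetyl-CoA through mevalonate, isoprenoid phosphates, squalene and lanosterol. When sterol in the endoplasmic reticulum is scarce, SCAP escorts the SREBP transcription factors to the Golgi apparatus, where they are cut and freed to switch on the synthesis genes, and when sterol is plentiful the INSIG proteins hold them back. Oxidised sterols also activate the liver X receptors, which switch on the exporters Abca1 and Abcg1. Insig1 is itself a target of SREBP, and Srebf1 is a target of the liver X receptors.

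The promoters were read for letters that the SREBP proteins and their partner NF-Y are known to bind, and 6 are shown here to let the sequences of enzyme, sensor and exporter genes be compared. RefSeq promoter windows on GRCm38.p6, each the 250 bases before a start site, were found for 25 of the 32 genes, and a gene counts once if any of its windows holds a motif. The box CCAAT, read on both strands, stands in 14 of 15 sterol enzyme genes (93.3%) and in 19 of the 25 genes (76.0%), against 37.5% of all 27025 genes of the table. Counted by window it stands in 77.8% of sterol enzyme windows and 33.8% of all windows. The sterol element TCACNCCAC was found only in Hmgcs1, against 1.22% of all genes. The E-box CACGTG, the element that clock proteins are known to bind, stands in 6 of the 25 genes (24.0%), namely Hsd17b7, Sc5d, Dhcr7, Insig1, Scap and Abca1, against 6.86% of all genes. None of these 3 motifs overlaps another in the lines below, where capitals mark any of the 3 on either strand, so that a CCAAT box on the other strand reads ATTGG. A match describes letters only. Each line runs 5′ to 3′ along the gene's own strand and stops before the gene's first annotated base, so that some lines are shorter than the window.
Hmgcs1 (chr13:119690101-119690350, + strand): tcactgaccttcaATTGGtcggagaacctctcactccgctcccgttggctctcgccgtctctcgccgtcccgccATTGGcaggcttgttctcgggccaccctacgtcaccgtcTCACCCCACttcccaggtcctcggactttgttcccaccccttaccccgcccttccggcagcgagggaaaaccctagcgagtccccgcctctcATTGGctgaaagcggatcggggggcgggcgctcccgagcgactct
Mvd (chr8:122443423-122443672, - strand): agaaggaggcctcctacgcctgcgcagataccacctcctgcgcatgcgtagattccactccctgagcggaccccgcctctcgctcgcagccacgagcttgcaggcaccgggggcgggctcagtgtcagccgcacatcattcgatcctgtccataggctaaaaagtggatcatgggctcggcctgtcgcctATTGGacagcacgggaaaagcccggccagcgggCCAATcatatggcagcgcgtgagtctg
Nsdhl (chrX:72918271-72918520, + strand): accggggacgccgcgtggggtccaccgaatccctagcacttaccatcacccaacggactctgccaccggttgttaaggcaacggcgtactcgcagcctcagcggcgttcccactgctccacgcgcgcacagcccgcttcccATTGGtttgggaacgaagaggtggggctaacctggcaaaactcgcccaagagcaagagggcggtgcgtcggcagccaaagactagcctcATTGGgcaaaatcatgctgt
Hsd17b7 (chr1:169969242-169969455, - strand): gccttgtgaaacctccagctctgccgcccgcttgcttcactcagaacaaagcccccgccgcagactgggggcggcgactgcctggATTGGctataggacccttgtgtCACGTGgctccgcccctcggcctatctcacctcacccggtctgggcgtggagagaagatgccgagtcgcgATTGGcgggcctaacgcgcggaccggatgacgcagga
Insig1 (chr5:28071162-28071362, + strand): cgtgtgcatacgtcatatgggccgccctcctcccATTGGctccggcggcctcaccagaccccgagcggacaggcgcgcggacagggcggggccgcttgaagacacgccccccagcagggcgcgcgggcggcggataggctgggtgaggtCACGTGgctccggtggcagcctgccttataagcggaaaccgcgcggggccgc
Abca1 (chr4:53159896-53160145, - strand): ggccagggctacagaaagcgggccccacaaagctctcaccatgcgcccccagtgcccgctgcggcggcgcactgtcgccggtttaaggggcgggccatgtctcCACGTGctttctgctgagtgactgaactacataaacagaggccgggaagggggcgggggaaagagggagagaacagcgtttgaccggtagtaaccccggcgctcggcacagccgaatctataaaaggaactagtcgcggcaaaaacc
Hmgcs1 is the one with the sterol element as well as CCAAT boxes, Insig1 holds both a CCAAT box and an E-box, and the Abca1 window holds an E-box and no CCAAT box.

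Levels are given as CPM, counts scaled to the usual common total: the UMIs (counted molecules) of a gene over all UMIs of the cells of a class in 1 library. Differences are the log2 ratio of CPM, ZT16 over ZT4 unless said otherwise, with the 95% interval in square brackets. These intervals cover counting error only. With 1 library per group no difference between conditions could be tested, no p-value is given, and the spread between animals is unknown. A gene counts as measured in a comparison when its UMIs in the compared groups add up to at least 30, and as higher or lower when it is at least 1.5-fold apart. "Rose" and "fell" are used of such genes only, and percentages of all measured genes past the same fold are given beside the counts. After a count of genes that fell and rose, the percentages in brackets are the shares of all measured genes that did so, in the same order.

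The libraries held 8626 to 14079 barcodes and 72747703 to 132221721 UMIs, and 7638 to 11168 cells per library remained after filtering, with median depths of 3173 to 11125 UMIs. Between 21 and 65 barcodes (0.24 to 0.57% of the smaller library) were shared by any pair of libraries. The automatic doublet threshold marked only 3 and 1 barcodes in the day 3 libraries, so barcodes were left out by score at a set rate instead. Cells were grouped into 41 clusters, or 51 once unnamed ones were divided, and 45 of these were joined into classes named, as "like" a cell type, from marker genes. The 6 left unnamed are in no class. Among them, clusters of 84, 70, 41 and 36 cells with Apln among their leading genes had 9 or 10 of 10 endothelial markers. These cells are therefore missing from the endothelial-like class. Classes with at least 50 cells in both libraries were compared, which gave 27 comparisons between ZT16 and ZT4. Free RNA in droplets gives a gene a low level in cells that do not express it, so a gene whose level in a class is under 10% of that in the highest class of the same library is named as such.

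Before injury, fibro-adipogenic-like cells had more RNA of nearly the whole sterol pathway at ZT4 than at ZT16. These are the connective tissue progenitors of muscle, and 3201 of them were captured at ZT4 and 2621 at ZT16. The 18 sterol enzymes together stood at 729.8 and 324 CPM, a difference of -1.17 [-1.21, -1.13]. Of the 18 enzymes, all measured, 15 fell and 0 rose, with a median of -1.26, whereas the median of all genes measured was 0.07. Of those genes 5.84% were at least 1.5-fold lower and 8.61% at least 1.5-fold higher.

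**Figure D1:**
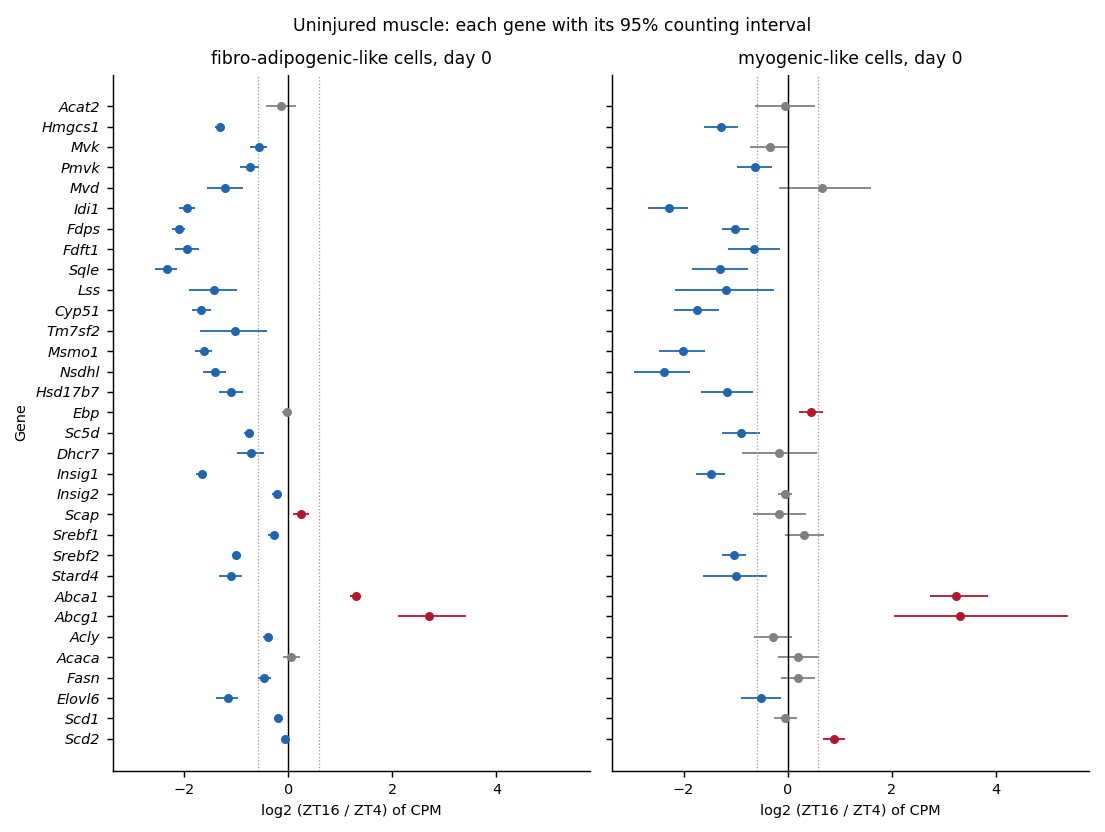
Points give log2 (ZT16 / ZT4) of CPM on day 0 for each measured gene, fibro-adipogenic-like cells left and myogenic-like cells right, with 95% counting intervals as bars and dotted lines at 1.5-fold. Blue points (interval below 0) fill the enzyme rows of both panels, while Abca1 and Abcg1 lie to the right in red.

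The mevalonate steps, which build the isoprenoid units, held some of the widest gaps. Fdps, which makes farnesyl pyrophosphate (ENSMUSG00000059743, GRCm38 chromosome 3, 89093588 to 89101959), stood at 109 and 25.2 CPM on day 0, 143 and 171 CPM on day 1, and 63.5 and 60.2 CPM on day 3 at ZT4 and ZT16. The day 0 pair differed by -2.11 [-2.23, -1.99], and the ZT16 library of day 0 was the lowest of the 6. Idi1, which interconverts the isoprenoid building blocks (chromosome 13, 8885501 to 8892451), stood at 60.4 and 15.7 CPM on day 0, 93.8 and 101 CPM on day 1, and 19.0 and 18.4 CPM on day 3, and its day 0 difference was -1.94 [-2.10, -1.79]. Hmgcs1, which makes the HMG-CoA from which mevalonate comes (chromosome 13, 119690379 to 119708260), stood at 108 and 43.5 CPM on day 0, 155 and 123 CPM on day 1, and 55.1 and 55.2 CPM on day 3 and differed by -1.31 [-1.41, -1.21] on day 0. In all 3 genes the day 0 gap was wide while the pairs of day 3 lay close together. Mvd, the decarboxylase that ends the mevalonate stretch, fell from 8.73 to 3.75 CPM (-1.21 [-1.57, -0.88]), and the kinase gene Pmvk fell from 23.7 to 14.2 CPM (-0.74). The kinase gene Mvk (29.3 and 19.8 CPM, -0.57) and Acat2 (7.90 and 7.16 CPM, -0.14) did not reach 1.5-fold. Acat2, a thiolase that joins acetyl-CoA units, has a near-identical copy, Acat3, in the genome, so its count is uncertain.

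The next 3 enzymes make squalene and turn it into lanosterol. Sqle, squalene epoxidase and a rate-limiting step (chromosome 15, 59315077 to 59331192), stood at 42.8 and 8.45 CPM on day 0, 48.1 and 47.2 CPM on day 1, and 11.7 and 12.9 CPM on day 3. Its 5.06-fold drop on day 0 (-2.34 [-2.55, -2.14]) was the widest fall of any of the 32 genes in this class. Fdft1, squalene synthase, fell from 27.3 to 7.08 CPM (-1.95 [-2.19, -1.72]), and Lss, lanosterol synthase, from 5.66 to 2.08 CPM (-1.43 [-1.91, -0.99]).

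Of the 8 enzymes that turn lanosterol into cholesterol, 7 fell on day 0 in fibro-adipogenic-like cells. Cyp51, the lanosterol demethylase (chromosome 5, 4081145 to 4104746), stood at 38.5 and 12.1 CPM on day 0, 67.0 and 83.2 CPM on day 1, and 30.3 and 29.6 CPM on day 3 and differed by -1.67 [-1.86, -1.49] on day 0. Msmo1, a methyl sterol oxidase (chromosome 8, 64718139 to 64733792), stood at 51.0 and 16.5 CPM on day 0, 52.4 and 54.6 CPM on day 1, and 14.1 and 17.7 CPM on day 3, with -1.63 [-1.79, -1.47] on day 0. Nsdhl, which acts on the same methyl groups (chromosome X, 72918557 to 72958514), stood at 21.8 and 8.18 CPM on day 0, 18.3 and 15.5 CPM on day 1, and 11.6 and 8.89 CPM on day 3, with -1.41 [-1.64, -1.19]. Msmo1, Nsdhl and Hsd17b7 act in turn in the same demethylation, and the ZT4 library of day 0 was the higher of its pair for all 3. Hsd17b7 fell from 17.6 to 8.18 CPM (-1.10), Sc5d, a sterol desaturase, from 93.8 to 55.4 CPM (-0.76), and Dhcr7, a late reductase, from 12 to 7.27 CPM (-0.72). Tm7sf2, a sterol reductase, fell from 2.42 to 1.17 CPM (-1.03), and because it overlaps Vps51 on the same strand its count is uncertain. The eighth, the sterol isomerase gene Ebp (chromosome X, 8185329 to 8193512), stood at 70.2 and 68.5 CPM on day 0, 56.7 and 74.0 CPM on day 1, and 78.4 and 76.3 CPM on day 3, and its day 0 pair was level (-0.04 [-0.13, 0.06]).

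The sensing genes divided. Insig1, the sterol-regulated anchor of SCAP (chromosome 5, 28071363 to 28078662), stood at 99.8 and 31.4 CPM on day 0, 48.1 and 40.2 CPM on day 1, and 16.9 and 16.2 CPM on day 3 and differed by -1.67 [-1.78, -1.56] on day 0. Srebf2, which encodes the SREBP of cholesterol synthesis (chromosome 15, 82147181 to 82205379), stood at 107 and 53.5 CPM on day 0, 50.6 and 41.2 CPM on day 1, and 28.0 and 30.8 CPM on day 3, with -1.0 [-1.09, -0.91] on day 0. Insig1 and Srebf2 were highest in the uninjured ZT4 library. Insig2, which encodes another anchor protein, stood at 66.0 and 56.5 CPM (-0.23), Srebf1 at 52.3 and 42.9 CPM (-0.28) and Scap at 21.7 and 25.7 CPM (0.24), and none of the 3 reached 1.5-fold.

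The exporters went the other way. Abca1, which hands cholesterol to lipid-poor apolipoproteins (chromosome 4, 53030787 to 53159895), stood at 35.7 and 87.6 CPM on day 0, 15.2 and 7.05 CPM on day 1, and 51.0 and 55.0 CPM on day 3 and was 2.45-fold higher at ZT16 on day 0 (1.29 [1.19, 1.40]). Abcg1, which exports sterol to lipoprotein particles (chromosome 17, 31057675 to 31117988), stood at 0.828 and 5.49 CPM on day 0, 1.22 and 2.11 CPM on day 1, and 12.8 and 18.5 CPM on day 3 and rose by 2.70 [2.10, 3.42] on day 0. Its day 0 levels rest on 24 and 145 UMIs and are 3.01% and 7.14% of the highest class of their libraries, where free RNA and expression cannot be told apart. Abca1 at ZT4 was at 21.4% of the highest class. Stard4, which carries sterol through the cytosol and is itself an SREBP target, fell from 21.0 to 9.73 CPM (-1.11 [-1.32, -0.90]).

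Of the 6 fatty acid genes, 1 fell on day 0 in fibro-adipogenic-like cells. It was Elovl6, which lengthens fatty acid chains (22.8 and 10.1 CPM, -1.17 [-1.38, -0.96]). Scd1 stood at 107 and 93.2 CPM (-0.20) and Scd2 at 196 and 187 CPM (-0.07), both desaturases that make monounsaturated chains. Fasn, fatty acid synthase, stood at 45.4 and 32.9 CPM (-0.46), Acly, which splits citrate into acetyl-CoA, at 88.8 and 67.3 CPM (-0.40), and Acaca, the carboxylase that makes malonyl-CoA, at 21.6 and 22.4 CPM (0.05). The 6 together stood at 482 and 413 CPM (-0.22 [-0.26, -0.19]), a smaller gap than that of the sterol enzymes.

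Among 33 other genes of these pathways, 32 were measured in fibro-adipogenic-like cells on day 0, of which 4 rose and 2 fell. These counts lie near the shares of all genes (8.61% and 5.84%), and the genes are named for their values only. Those that rose were Mlxipl (0.552 and 1.36 CPM, 1.28), Erlin1 (10.2 and 18.3 CPM, 0.85), Ch25h (1.45 and 2.46 CPM, 0.76) and Nr1h3 (22.0 and 33.7 CPM, 0.62). Fads1, a fatty acid desaturase and known SREBP target, fell from 97.1 to 55.8 CPM (-0.80), and Lpcat3, which remodels phospholipids, from 31.6 to 20.8 CPM (-0.61). Nr1h3 encodes a liver X receptor, Erlin1 a protein of the endoplasmic reticulum that binds SREBP complexes, and Ch25h makes an oxidised sterol.

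The fall of the sterol enzymes in fibro-adipogenic-like cells was seen in each of 4 clusters with enough cells in both libraries. Their summed differences were -1.27, -1.02, -0.95 and -1.08. Median depth was 9375 UMIs per cell at ZT4 and 10563 at ZT16, and the median mitochondrial share was 2.35% and 2.44%. Marker genes of the other classes summed to 6901 CPM at ZT4 (9 of 143 at 0) and 7494 CPM at ZT16 (21 at 0), and their part in the result was not tested.

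**Figure D2:**
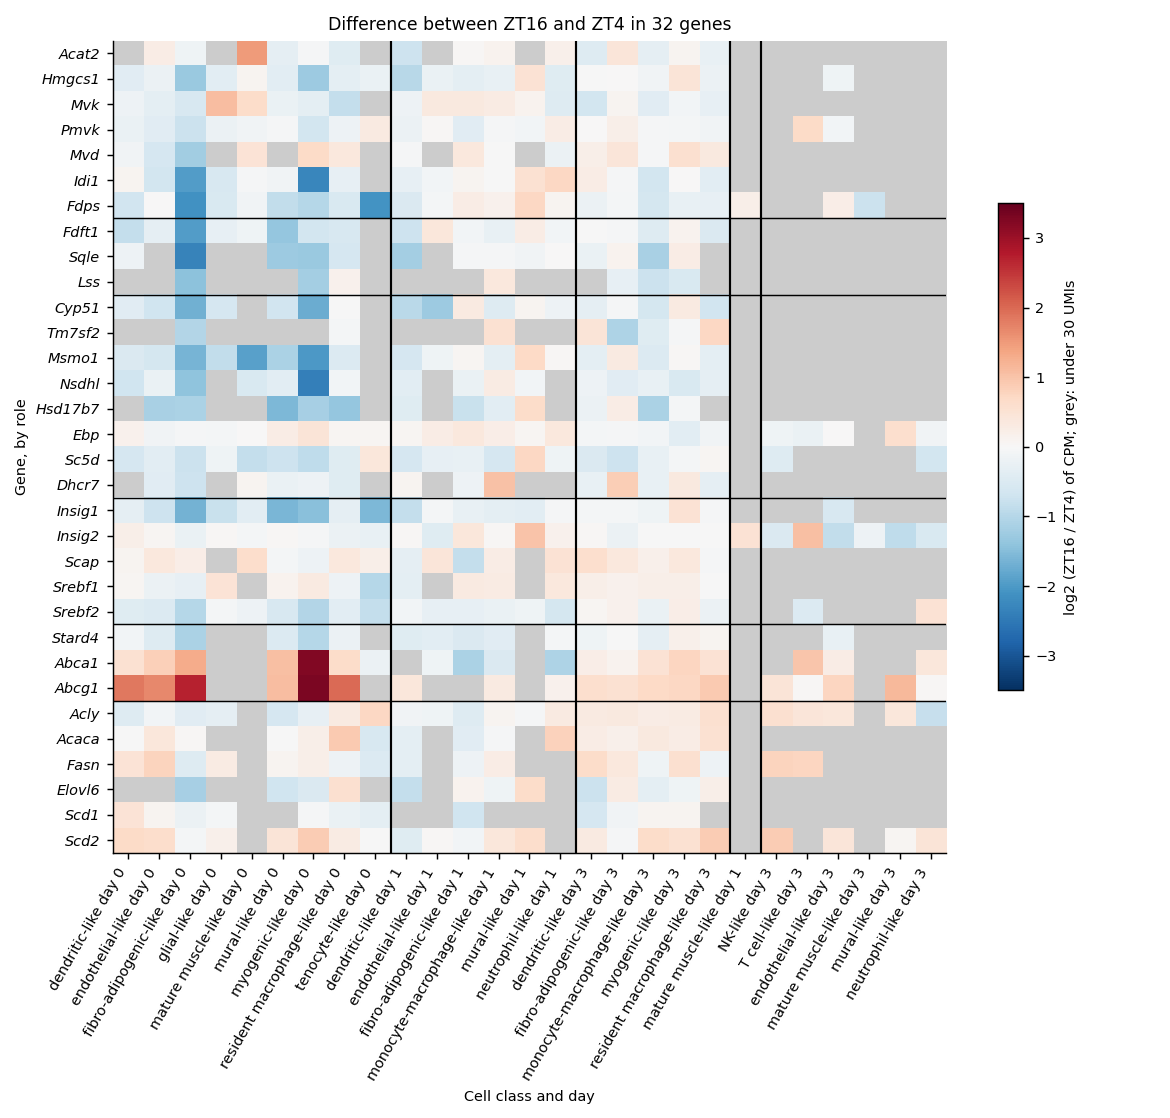
Colours give log2 (ZT16 / ZT4) of CPM for each of the 32 genes (grouped by role) in every class and day compared, red for higher and blue for lower at ZT16, grey where fewer than 30 UMIs were counted. The densest blue stands in the enzyme rows of the fibro-adipogenic-like and myogenic-like columns of day 0, and the Abcg1 row is red in most day 0 columns where it was measured.

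Myogenic-like cells, which hold the muscle stem cells and their progeny, showed the sterol enzymes lower and the exporters higher at ZT16 on day 0. The 18 enzymes stood at 425 and 232 CPM (-0.87 [-0.96, -0.78]), and of 17 measured 12 fell and 1 rose, with a median of -1.01 against -0.01 for all genes. Of all measured genes 7.42% were lower and 9.18% higher. With every cell thinned to 1000 UMIs, the summed difference was -1.21 in place of -0.87, and 7 enzymes were lower in place of 12. The number of enzymes still measured and the share of all genes are not given for that setting. Thinning leaves fewer UMIs for each gene, so that fewer can be measured, and single-gene values after it carry no interval here. A turned sign of a gene at a low level after thinning therefore does not settle its direction.

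Nsdhl stood at 25.7 and 4.88 CPM on day 0, and 8.67 and 6.0 CPM on day 3 at ZT4 and ZT16 in myogenic-like cells, and its day 0 difference was -2.38 [-2.96, -1.87]. Idi1 stood at 46.4 and 9.50 CPM on day 0, and 28.5 and 28.5 CPM on day 3 and differed by -2.28 [-2.68, -1.91] on day 0. Msmo1 stood at 31.8 and 7.83 CPM on day 0, and 15.1 and 15.5 CPM on day 3 and differed by -2.02 [-2.47, -1.59]. In these 3 enzyme genes the uninjured ZT4 library was above the 3 others. Cyp51 fell from 28.9 to 8.6 CPM (-1.75), Sqle from 15.1 to 6.16 CPM (-1.29) and Hmgcs1 from 40.1 to 16.6 CPM (-1.27). The other enzymes that fell were Lss, Hsd17b7, Fdps, Sc5d, Fdft1 and Pmvk, at -1.18, -1.16, -1.01, -0.89, -0.64 and -0.64. Mvd was the 1 enzyme gene past 1.5-fold upwards, at 3.26 and 5.26 CPM, with an interval that spans 0 (0.67 [-0.16, 1.60]).

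Insig1 stood at 60.4 and 21.7 CPM on day 0, and 4.64 and 6.63 CPM on day 3 in myogenic-like cells and fell by 2.78-fold on day 0 (-1.48 [-1.76, -1.2]). Srebf2 stood at 70.7 and 34.8 CPM on day 0, and 55.5 and 65.2 CPM on day 3, with -1.02 [-1.26, -0.79] on day 0. Insig2 did not reach 1.5-fold between the times on either day, at 153 and 148 CPM on day 0, and 32.4 and 31.8 CPM on day 3, and was higher before injury. Stard4 fell from 10.5 to 5.26 CPM (-1.0).

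Abca1 stood at 5.75 and 55.3 CPM on day 0, and 3.54 and 5.95 CPM on day 3 in myogenic-like cells, a 9.47-fold rise on day 0 on 30 and 431 UMIs (3.24 [2.73, 3.85]). The uninjured ZT16 library stood alone, and the other 3 were all under 6 CPM. Abcg1 stood at 0.767 and 8.47 CPM on day 0, and 1.95 and 3.24 CPM on day 3 and rose by 3.31 [2.04, 5.38] on day 0, on 4 and 66 UMIs. At ZT4 Abca1 was at 3.44% and Abcg1 at 2.79% of the highest class, levels at which free RNA and expression cannot be told apart, and at ZT16 they were at 21.2% and 11.0%. Markers of other classes in the myogenic-like cells went both ways from ZT4 to ZT16. Those of resident macrophages summed to 15.7 and 5.77 CPM, of monocyte-macrophages to 229 and 105, of fibro-adipogenic cells to 880.4 and 958, of mature muscle to 4866 and 5991 and of neutrophils to 393 and 500.3 CPM, and their part in the result was not tested. With 5% of UMIs subtracted as free RNA the differences were 3.85 and 3.64, and with cells thinned to 1000 UMIs they were 3.34 and 1.16.

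Scd2 was the 1 fatty acid gene that rose in myogenic-like cells on day 0, and stood at 50.2 and 93.2 CPM on day 0, and 67.7 and 97.3 CPM on day 3 (0.89 [0.69, 1.10]). Scd1 did not reach 1.5-fold between the times, at 55.8 and 54.1 CPM on day 0, and 9.20 and 9.91 CPM on day 3. Of 31 other pathway genes measured, 2 rose and 2 fell, against 9.18% and 7.42% of all genes. Mylip, a liver X receptor target that marks lipoprotein receptors for breakdown, rose from 34.3 to 61.2 CPM (0.83), and Lpcat3, another such target, from 19.4 to 30.5 CPM (0.65). Fads1 fell from 12.3 to 6.67 CPM (-0.88) and Slc25a1, the mitochondrial citrate carrier, from 14.6 to 8.34 CPM (-0.80). Lpcat3 was lower in fibro-adipogenic-like cells and higher in myogenic-like cells at ZT16, and the difference between the classes was not tested.

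One cluster held most of the myogenic-like cells of day 0 (887 and 966 cells), and in it the enzymes stood at 425 and 201 CPM (-1.08) and Abca1 differed by 3.41. Cells with at least 3 UMIs of G2M genes, a sign of division, numbered 5 of 891 at ZT4 and 60 of 1039 at ZT16. Without them the summed enzymes differed by -1.05. Median depth was 5589 and 6762 UMIs and markers of other classes summed to 7335 and 8465 CPM (46 and 48 of 143 at 0), and their part in the result was not tested.

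The classes of the vessel wall also had lower enzyme and higher exporter RNA at ZT16 before injury. In mural-like cells, which wrap small vessels, 7 of 15 enzymes measured fell and 0 rose, at a background of 10.4% lower and 7.44% higher, and their sum went from 436 to 312 CPM (-0.49 [-0.62, -0.35]). Insig1 and the later enzymes led the falls. Insig1 fell from 29.8 to 9.75 CPM (-1.60 [-2.29, -0.96]), Hsd17b7 from 11.8 to 3.90 CPM (-1.57), Fdft1 from 15.1 to 5.85 CPM (-1.36) and Sqle from 10.4 to 4.22 CPM (-1.28). Msmo1 (47.3 and 22.1 CPM, -1.10), Fdps (82.8 and 45.8 CPM, -0.85), Sc5d (31.2 and 18.8 CPM, -0.73) and Acly (61.5 and 40.6 CPM, -0.60) also fell. The exporters went the opposite way. Abcg1 rose from 15.1 to 32.2 CPM (1.07) and Abca1 from 5.68 to 12 CPM (1.04), the latter at 3.40% and 4.61% of the highest class. Of 26 other pathway genes, 1 rose and 6 fell, led by Lpin1, a phosphatidate phosphatase (38.3 and 17.2 CPM, -1.15).

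In endothelial-like cells 4 of 15 enzymes fell on day 0 and 0 rose, where 12.9% of all genes were lower and 4.78% higher. The median of all genes was itself -0.13 there, against -0.37 for the enzymes. Abcg1 rose from 11.7 to 37.9 CPM (1.69 [1.37, 2.03]) and Abca1 from 43.9 to 78.4 CPM (0.83 [0.66, 1.02]), and Scd2 rose from 20.3 to 31.0 CPM (0.61). The sensor and 3 synthesis enzymes were lower at ZT16 with intervals below 0. Insig1 fell from 44.7 to 27.2 CPM (-0.71 [-0.94, -0.49]), Cyp51 from 6.54 to 4.01 CPM (-0.70), Idi1 from 15.4 to 9.84 CPM (-0.64) and Msmo1 from 21.5 to 13.9 CPM (-0.63). Hsd17b7 fell from 4.48 to 2.0 CPM (-1.15) but was 0.59 with cells thinned to 1000 UMIs. Of 32 other pathway genes 6 fell and 2 rose, among them Mylip (99.7 and 171 CPM, 0.78) and Ch25h (2.54 and 4.56 CPM, 0.82) upwards and Elovl7, a chain elongase (2.78 and 1.28 CPM, -1.11), and Nceh1, which frees stored cholesterol (13.6 and 7.29 CPM, -0.89), downwards.

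In both immune classes compared in uninjured muscle Abcg1 rose. In resident macrophage-like cells 3 of 18 enzymes fell and 0 rose (6.11% and 4.11% of all genes), and their sum stood at 335 and 282 CPM (-0.25 [-0.34, -0.16]). Abcg1 rose from 11.0 to 43.6 CPM (1.99 [1.64, 2.35]) and Abca1 from 167 to 261 CPM (0.64 [0.54, 0.75]), the highest Abca1 of any class in those libraries. Both exporters were thus higher at ZT16, and a fatty acid gene with them. Acaca rose from 5.66 to 10.7 CPM (0.92) and Hsd17b7 fell from 5.42 to 2.04 CPM (-1.36). Mvk (8.67 and 4.77 CPM, -0.85) and Sqle (10.8 and 7.15 CPM, -0.59) fell, but after thinning to 1000 UMIs they were 1.73 and 0.20. Insig1 was at 45.7 and 36.8 CPM (-0.31), under 1.5-fold. Of 30 other pathway genes 2 rose and 4 fell, among them Mylip (46.0 and 81.2 CPM, 0.82) upwards and Ch25h (17.6 and 5.96 CPM, -1.55) downwards.

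In dendritic-like cells of day 0, 4 of 13 enzymes fell and 0 rose (5.56% and 6.78% of all genes), with a summed level of 634 and 508 CPM (-0.32 [-0.45, -0.19]). Fdft1 fell from 24.3 to 13.6 CPM (-0.82) and Fdps from 107 to 67.5 CPM (-0.66). Abcg1 rose from 21.3 to 76.9 CPM (1.84 [1.31, 2.43]), and of the other pathway genes Mylip rose from 9.48 to 30.8 CPM (1.67) and Apoe, the apolipoprotein that accepts exported sterol, from 177 to 349 CPM (0.98). Scd2 rose from 29.0 to 46.2 CPM (0.66), and was -0.50 after thinning. Insig1 stood at 62.2 and 49.7 CPM (-0.32 [-0.76, 0.10]). Abcg1 was higher at ZT16 in all 6 day 0 classes in which it was measured, but a gene counts as measured by the UMIs of both times together. Myogenic-like cells passed that limit through their ZT16 UMIs, so the 6 are not read as agreement between classes.

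The smaller day 0 classes gave fewer measured genes. In tenocyte-like cells 1 of 5 enzymes fell and 0 rose (7.36% and 13.7% of all genes), namely Fdps (59.7 and 13.8 CPM, -2.08 [-3.01, -1.28]), and Insig1 (49.1 and 16.3 CPM, -1.58 [-2.46, -0.77]) and Srebf2 (43.8 and 24.4 CPM, -0.84) fell with it. Srebf1 fell from 41.1 to 20.3 CPM (-1.01) there, but was 0.38 after thinning. Glial-like cells, which hold the myelin-forming cells of the nerve, had 2 enzymes lower and 1 higher of 10 (8.11% and 10.3% of all genes), with Msmo1 from 109 to 59.9 CPM (-0.86) and Mvk from 20.8 to 46.1 CPM (1.09). Insig1 in glial-like cells was at 37.0 and 21.5 CPM with an interval that spans 0 (-0.78 [-1.93, 0.34]). In mature muscle-like cells 2 enzymes fell and 2 rose of 13 (4.63% and 8.14% of all genes), and the sum was level at 149.5 and 145 CPM (-0.05 [-0.16, 0.07]). Mature muscle-like barcodes were 13.9% and 19.1% of the cells kept at ZT4 and ZT16 of day 0, with a median mitochondrial share of 0.16% and 0.15%. That share was 2.35% and 2.44% in fibro-adipogenic-like cells of day 0, and 0.32% at both times in neutrophil-like cells of day 1. Whether the mature muscle-like barcodes are whole cells, nuclei or fragments was not tested. No one direction prevailed among the enzymes of mature muscle-like cells. Msmo1 was at 3.43 and 0.892 CPM there (-1.89), which is 3.15% and 1.49% of the highest class, where free RNA and expression cannot be told apart. Acat2 rose from 1.43 to 4.16 CPM (1.49), and Mvk rose from 6.71 to 10.6 CPM (0.65) but was -0.28 after thinning. Insig1 in mature muscle-like cells was at 2.28 and 1.78 CPM (-0.36), 2.29% and 3.59% of the highest class, and none of the 6 fatty acid genes was measured.

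A day after injury the difference between the times had another shape, and it depended on the class. In fibro-adipogenic-like cells 1 of 16 enzymes fell and 0 rose (18% and 6.11% of all genes), and the sums were level at 897 and 905 CPM (0.01 [-0.08, 0.11]). The median of all genes was -0.13 in this comparison and that of the enzymes 0.00. Abca1, higher at ZT16 before injury, fell from 15.2 to 7.05 CPM (-1.11 [-2.04, -0.21]), at 16.4% and 6.46% of the highest class. Abca1 was thus higher at ZT16 on day 0 and lower on day 1, a difference between days that was not tested. Scd1 fell from 45.1 to 27.8 CPM (-0.70) and Hsd17b7 from 40.8 to 23.6 CPM (-0.79), while Scap, the SREBP escort, fell from 21.3 to 12 CPM (-0.83) and was 0.41 after thinning. Insig1 was at 48.1 and 40.2 CPM (-0.26). Of 29 other pathway genes 12 fell and 1 rose, led by Acss2, which makes acetyl-CoA from acetate (11.6 and 4.58 CPM, -1.32). This class had 90 and 161 cells, and its own markers summed to 13448 and 7198 CPM, against 50438 and 51682 CPM on day 0.

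Dendritic-like cells had lower enzyme levels at ZT16 on day 1. Of 16 enzymes measured 6 fell and 0 rose (10.2% and 6.55% of all genes), and the sum went from 1312 to 952 CPM (-0.46 [-0.53, -0.40]). Sqle fell from 45.8 to 19.9 CPM (-1.2 [-1.61, -0.80]), Hmgcs1 from 126 to 64.3 CPM (-0.97 [-1.2, -0.75]), Cyp51 from 139 to 72.2 CPM (-0.94), Elovl6 from 14.1 to 7.91 CPM (-0.83) and Msmo1 from 81.0 to 53.6 CPM (-0.59). Hmgcs1 stands early in the pathway and Cyp51 and Msmo1 late, while Elovl6 lengthens fatty acid chains. Insig1 (44.1 and 24.8 CPM, -0.83) and Fdft1 (23.6 and 14.3 CPM, -0.72) also fell, and after thinning were 0.03 and 0.57. In the 1 dendritic-like cluster with enough cells at both times of day 1 the summed difference was -0.51. Of the other pathway genes Apoe rose from 22.2 to 109 CPM (2.29) and Lpin1 fell from 6.93 to 2.81 CPM (-1.27).

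Mural-like cells on day 1 were the class with the highest summed enzymes, and there 4 of 13 rose and 0 fell (9.87% and 12% of all genes). The sum was 1499.5 and 2072 CPM (0.47 [0.32, 0.61]). Fdps rose from 317 to 528 CPM (0.73 [0.42, 1.05]), Msmo1 from 136 to 223 CPM (0.70 [0.23, 1.21]) and Scd2 from 90.7 to 139.5 CPM (0.61). Insig1 was at 79.4 and 62.2 CPM (-0.36 [-1.08, 0.40]). These values rest on 61 and 108 cells, in which markers of other classes summed to 6667 and 2779.7 CPM (88 and 79 of 143 at 0), and their part in the result was not tested.

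In monocyte-macrophage-like cells of day 1 the sum differed little over the class, at 547 and 526 CPM (-0.06 [-0.08, -0.03]), and 1 of 18 enzymes rose and 1 fell (6.12% and 8.44% of all genes). Within its 3 clusters the sign was the opposite, at 0.21, 0.31 and 0.29. Their sums were 308 and 357 CPM, 959 and 1191 CPM and 413 and 506 CPM at ZT4 and ZT16. The cluster with the highest level held 1693 and 1044 cells at ZT4 and ZT16 and the one with the lowest 2080 and 2911. Each cluster was thus higher at ZT16 while the class was not, and the cells of the highest cluster were fewer there. Dhcr7 rose from 3.26 to 6.68 CPM (1.03 [0.75, 1.33]) and Sc5d fell from 20.1 to 13.3 CPM (-0.60), while Insig1 was at 39.3 and 31.1 CPM (-0.34). In neutrophil-like cells 1 of 13 enzymes rose and 0 fell (8.72% and 7.29% of all genes). Idi1 was the one that rose, from 10.3 to 16.9 CPM (0.71), while Abca1 fell from 27.2 to 12.8 CPM (-1.09 [-1.39, -0.80]), Srebf2 from 48.5 to 31.8 CPM (-0.61), and Insig1 was at 14.9 and 14.4 CPM (-0.04). A count of 1 in 13 is near the share of all genes that rose, and nothing is read from it. In endothelial-like cells 1 of 10 fell and 0 rose (12.9% and 7.11% of all genes). It was Cyp51 (29.4 and 12.1 CPM, -1.28 [-2.27, -0.28]), and Insig1 was level at 32.7 and 31.5 CPM (-0.07). In mature muscle-like cells 1 enzyme was measured and it did not reach 1.5-fold (12.7% of all genes were higher and 8.98% lower).

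**Figure D3:**
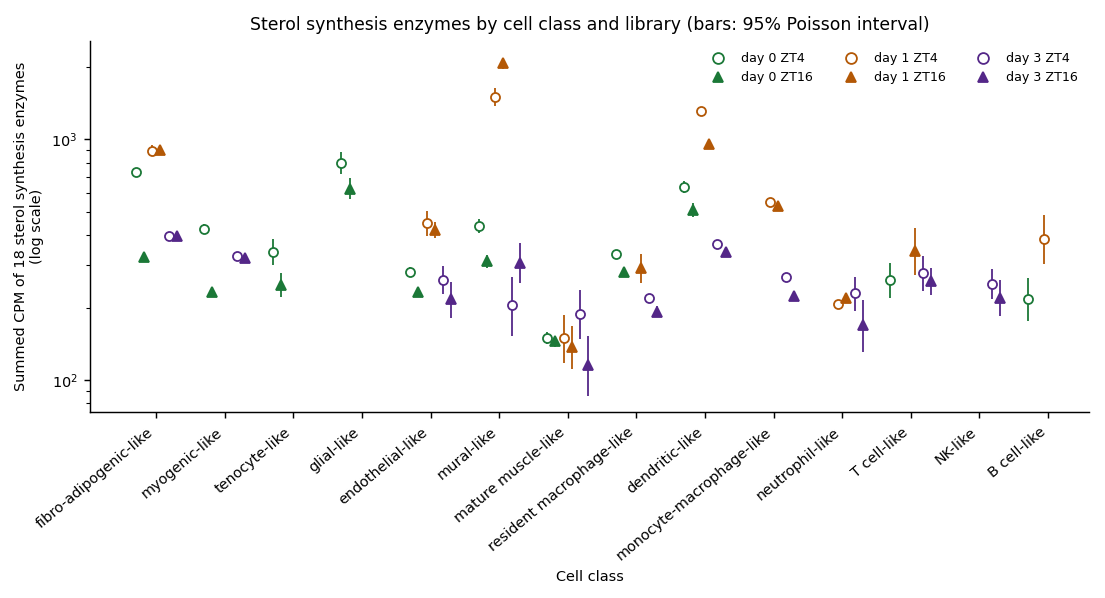
Points give the summed CPM of the 18 sterol enzymes (log axis) for each class with at least 50 cells in a library, open circles ZT4 and filled triangles ZT16, coloured by day, with 95% Poisson intervals as bars. The day 1 points lie highest in mural-like cells (1499.5 and 2072 CPM), and the day 0 pairs of fibro-adipogenic-like and myogenic-like cells are the farthest apart of their day.

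On day 3 the sterol enzymes of the mesenchymal and myogenic classes differed little between the times. In fibro-adipogenic-like cells the sum was 397 and 397 CPM (0.00 [-0.06, 0.06]), with 1 enzyme higher and 2 lower of 18 (4.36% and 4.04% of all genes). Dhcr7 rose from 4.88 to 8.89 CPM (0.86 [0.35, 1.39]) and Sc5d fell from 20.9 to 12.8 CPM (-0.71 [-1.04, -0.39]). With cells thinned to 1000 UMIs the summed difference was -0.37 and without G2M cells -0.25. In myogenic-like cells, of which 623 of 718 and 433 of 509 had 3 or more G2M UMIs, the sum was 326 and 319.7 CPM (-0.03 [-0.08, 0.02]), with 0 enzymes higher and 0 lower of 18 (7.82% and 1.75% of all genes). Without those cells, which left few, the difference was -0.53. Abca1 rose from 3.54 to 5.95 CPM (0.75) and Abcg1 from 1.95 to 3.24 CPM (0.73) at 0.915% and 1.08% of the highest class at ZT4. After thinning, which leaves fewer UMIs for each gene, Abcg1 was -1.08, with no interval given. Insig1 was at 16.9 and 16.2 CPM in fibro-adipogenic-like cells (-0.06) and at 4.64 and 6.63 CPM in myogenic-like cells (0.52 [0.15, 0.88]).

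Monocyte-macrophage-like cells on day 3 had lower enzymes and higher Abcg1 at ZT16. All 18 enzymes were measured and 18 of them were below 0, of which 6 fell by at least 1.5-fold and 0 rose (4.52% and 3.15% of all genes), and the sum was 267 and 224 CPM (-0.25 [-0.29, -0.22]). Sqle fell from 3.37 to 1.54 CPM (-1.12 [-1.55, -0.72]), Idi1 from 8.28 to 5.28 CPM (-0.65), Cyp51 from 12.7 to 8.30 CPM (-0.61) and Fdps from 28.9 to 18.9 CPM (-0.61). Hsd17b7 (1.23 and 0.565 CPM, -1.11) and Lss (1.36 and 0.804 CPM, -0.75) also fell, but were 0.53 and 0.41 after thinning. The 4 enzymes that kept their sign after thinning stand early and late in the pathway. Abcg1 rose from 163 to 264 CPM (0.70 [0.66, 0.74]) and Scd2 from 26.4 to 41.3 CPM (0.65), whereas Abca1 (203 and 288 CPM, 0.50 [0.46, 0.54]) and Insig1 (18 and 16.1 CPM, -0.15) did not reach 1.5-fold. Mlxipl, a carbohydrate-responsive lipogenic factor, led the other pathway genes (0.212 and 0.478 CPM, 1.13). Summed differences in its 5 clusters were -0.37, -0.17, -0.28, -0.39 and -0.09.

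In resident macrophage-like cells of day 3, 1 of 15 enzymes fell and 1 rose (5.54% and 5.57% of all genes). Abcg1 rose from 99.5 to 187 CPM (0.91 [0.79, 1.02]) and Scd2 from 17.2 to 31.8 CPM (0.89 [0.61, 1.17]), Cyp51 fell from 8.54 to 5.33 CPM (-0.67), and Abca1 was at 387 and 555 CPM (0.52) and Insig1 at 21.2 and 20.5 CPM (-0.05). The exporter was again the higher at ZT16. Ch25h fell from 6.65 to 0.948 CPM (-2.73), as it had on day 0. In dendritic-like cells 1 of 17 fell and 0 rose (3.71% and 4.57% of all genes). Mvk fell from 11.9 to 7.64 CPM (-0.64), Elovl6 from 4.33 to 2.57 CPM (-0.74), Fasn rose from 9.51 to 14.7 CPM (0.63) and Abcg1 from 69.5 to 105 CPM (0.60). The cluster led by Lad1 and Ccl22 had 887 and 1037 CPM of enzymes (0.23) and the one led by Klrb1b and Cd209a 381 and 318 CPM (-0.26). Insig1 over the class was at 19.3 and 18.3 CPM (-0.07).

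The 6 other day 3 classes were thin. Of the enzymes, 4 were measured in endothelial-like cells, where 9.67% of all genes were higher and 11.1% lower, and none reached 1.5-fold. Abcg1 rose there from 58.8 to 99.2 CPM (0.75 [0.19, 1.33]). In mural-like cells Abcg1 rose from 39.3 to 90.0 CPM (1.15 [0.13, 2.39]), where 9.92% of all genes were higher and 10.5% lower. Scd2 rose from 41.7 to 77.4 CPM in NK-like cells (0.88 [0.22, 1.57]), where 13% of all genes were higher and 6.79% lower. In T cell-like (12.7% higher and 7.62% lower of all genes), neutrophil-like (11.4% and 12.7%) and mature muscle-like cells (8.49% and 12.6%) no measured member, that is with at least 30 UMIs, was past 1.5-fold with an interval that excludes 0. Insig1 rested on few counts in all 6 classes, with 20 and 10 UMIs in endothelial-like, 2 and 6 in mural-like, 7 and 1 in NK-like, 6 and 8 in T cell-like, 9 and 6 in neutrophil-like and 1 and 1 in mature muscle-like cells, and on 1 and 5 UMIs in mature muscle-like cells of day 1.

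Of the 5 sensing genes, Insig1 was past 1.5-fold downwards on day 0 in the most classes. Those past 1.5-fold downwards numbered 2 of 5 in fibro-adipogenic-like (5.84% of all genes), 2 of 5 in myogenic-like (7.42%), 1 of 5 in mural-like (10.4%), 1 of 5 in endothelial-like (12.9%), 3 of 5 in tenocyte-like (7.36%) and 1 of 4 in glial-like cells (8.11%), and Insig1 was among them in each. With 5 genes, a count of 1 in mural-like and endothelial-like cells is near what these shares of all genes give, and nothing is read from it. None was past 1.5-fold in resident macrophage-like or dendritic-like cells of day 0. The 1 past it upwards was Scap in mature muscle-like cells (0.61 [-0.39, 1.76]), with an interval that spans 0. After injury few of them passed. On day 1 these were Scap in fibro-adipogenic-like (-0.83), Insig1 in dendritic-like (-0.83) and Srebf2 in neutrophil-like cells (-0.61), all downwards, and Insig2 in mural-like cells upwards (1.0 [-0.03, 2.30]). On day 3 the fibro-adipogenic-like, myogenic-like, monocyte-macrophage-like, resident macrophage-like and dendritic-like classes had none past 1.5-fold of 5 measured in each, and the 3 values past it elsewhere, all of Insig2, had intervals that span 0.

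The 3 carriage and efflux genes split by kind on day 0. The exporters Abca1 and Abcg1 were both past 1.5-fold upwards in fibro-adipogenic-like, myogenic-like, mural-like, endothelial-like and resident macrophage-like cells, and Abcg1 alone in dendritic-like cells (1.84). Stard4, the carrier, was past 1.5-fold downwards in fibro-adipogenic-like and myogenic-like cells. On day 1 none of the 3 was past 1.5-fold upwards at ZT16 in the classes where they were measured, and Abca1 was past it downwards in fibro-adipogenic-like and neutrophil-like cells. On day 3 Abcg1 was past 1.5-fold upwards in myogenic-like (0.73), monocyte-macrophage-like (0.70), resident macrophage-like (0.91), dendritic-like (0.60), endothelial-like (0.75) and mural-like cells (1.15), but not in fibro-adipogenic-like (0.53), neutrophil-like (0.03), T cell-like (0.05 [-0.64, 0.80]) or NK-like cells (0.45 [-0.29, 1.2]).

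The 6 fatty acid genes, summed, leaned to ZT16 on day 3 and both ways before. On day 3 the sum was higher at ZT16, with an interval above 0, in 8 of 11 classes, and in none was the interval below 0. The differences were 0.38 [0.32, 0.44] in monocyte-macrophage-like, 0.59 [0.45, 0.72] in resident macrophage-like, 0.40 [0.34, 0.46] in myogenic-like, 0.28 [0.17, 0.39] in dendritic-like, 0.59 [0.22, 0.96] in NK-like and 0.80 [0.24, 1.44] in T cell-like cells. They were 0.35 [0.00, 0.69] in endothelial-like and 0.08 [0.00, 0.15] in fibro-adipogenic-like cells, where the lower bound is just above 0. The medians of all measured genes in these 8 comparisons ran from -0.05 to 0.10. Only 2 of the 6 genes were measured in T cell-like and in endothelial-like cells and 3 in NK-like cells, so those sums rest on few genes. In monocyte-macrophage-like and in dendritic-like cells all 6 were measured, and 2 of them lay below 0. On day 0 the sum was higher at ZT16 in myogenic-like (0.25 [0.14, 0.37]) and resident macrophage-like cells (0.30 [0.14, 0.46]) and lower in fibro-adipogenic-like cells (-0.22 [-0.26, -0.19]). On day 1 it was higher in monocyte-macrophage-like (0.14 [0.08, 0.20]) and neutrophil-like cells (0.39 [0.19, 0.59]) and lower in dendritic-like (-0.33 [-0.52, -0.14]) and fibro-adipogenic-like cells (-0.26 [-0.41, -0.10]). Single genes passed 1.5-fold in both directions. Elovl6, the elongase, was past 1.5-fold downwards in fibro-adipogenic-like cells of day 0 (-1.17) and dendritic-like cells of day 1 (-0.83) and day 3 (-0.74). Scd2, a desaturase, was past it upwards in myogenic-like (0.89), endothelial-like (0.61) and dendritic-like cells of day 0 (0.66), in mural-like cells of day 1 (0.61), and in monocyte-macrophage-like (0.65), resident macrophage-like (0.89) and NK-like cells of day 3 (0.88). Apart from these, the genes past 1.5-fold with an interval that excludes 0 were Acly, which makes acetyl-CoA, downwards in mural-like cells of day 0 (-0.60), Acaca upwards in resident macrophage-like cells of day 0 (0.92), Scd1 downwards in fibro-adipogenic-like cells of day 1 (-0.70), and Fasn upwards in dendritic-like cells of day 3 (0.63).

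**Figure D4:**
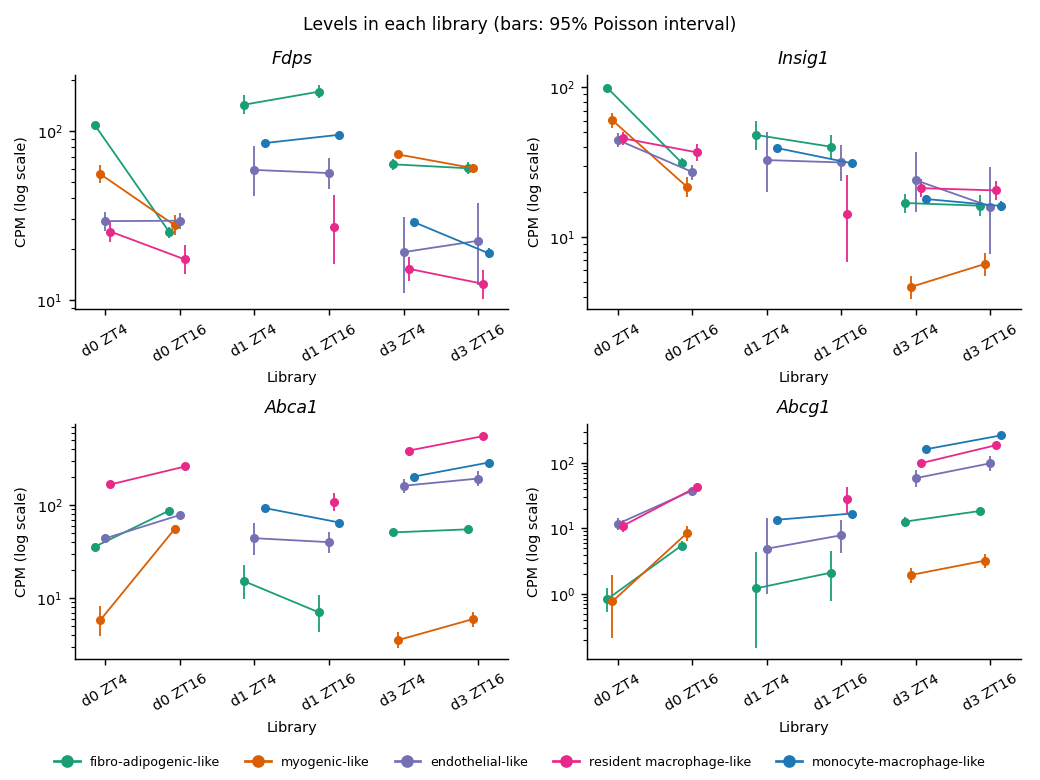
Lines join the ZT4 and ZT16 libraries of each day for 4 genes in 5 classes, as CPM on log axes with 95% Poisson intervals. Fdps and Insig1 run downwards from ZT4 to ZT16 on day 0 while Abca1 and Abcg1 run upwards, and the monocyte-macrophage-like line of Abcg1 lies far higher on day 3 (163 and 264 CPM) than on day 1 (13.6 and 16.9 CPM).

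Between days, each comparison was made at ZT4 and again at ZT16. The 2 share no library, while comparisons of different days at 1 time share one. The day, the injury and which cells a class holds cannot be told apart. In sums over a class a change in which cells are present and a change in RNA per cell cannot be told apart either. Of 43 day comparisons 18, chosen with their results known, are described by gene, and the others by their sums.

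From day 0 to day 1 sterol enzyme RNA was higher at both times in 4 of the 5 classes compared at both. Mural-like cells showed it most, with 12 of 13 enzymes higher and 0 lower at ZT4, a summed difference of 1.78 [1.62, 1.94], and 16 of 16 higher and 0 lower at ZT16 (2.73 [2.61, 2.85]). Of all genes 18.5% were higher and 26.9% lower at ZT4, and 14.3% and 23.5% at ZT16. Sqle stood at 10.4 and 4.22 CPM on day 0, 93.5 and 86.4 CPM on day 1, and 11.8 and 0 CPM on day 3 at ZT4 and ZT16 in mural-like cells, and differed between day 1 and day 0 by 3.16 at ZT4 and 4.31 at ZT16. Fdps stood at 82.8 and 45.8 CPM on day 0, 317 and 528 CPM on day 1, and 43.2 and 43.5 CPM on day 3, and differed by 1.94 at ZT4 and 3.52 at ZT16. Cyp51 stood at 17.0 and 10.7 CPM on day 0, 133 and 144 CPM on day 1, and 3.93 and 20.3 CPM on day 3, and differed by 2.96 at ZT4 and 3.73 at ZT16. In all 3 genes both day 1 libraries lay above the 4 others. Hmgcs1 rose (2.38 at ZT4 and 3.26 at ZT16), Idi1 (2.58 at ZT4 and 3.24 at ZT16), and Insig1 (1.43 at ZT4 and 2.67 at ZT16). Own markers of the class summed to 27176 and 23946 CPM on day 0 and 11041 and 11856 CPM on day 1, and their part in the result was not tested. With high doublet scores kept, the ZT16 sum on day 1 was 1754 CPM in place of 2072.

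In fibro-adipogenic-like cells the step to day 1 was unlike at the 2 times. At ZT4, 6 of 18 enzymes rose and 0 fell (0.30 [0.22, 0.37]), and at ZT16, 15 rose and 0 fell (1.48 [1.42, 1.54]), where the day 0 level was the lower. Of all genes 23.3% and 20.2% were higher and 35.4% and 45.7% lower at ZT4 and ZT16. At ZT16 Cyp51 rose by 2.78, Fdps by 2.76, Idi1 by 2.69, Mvd by 2.52 and Sqle by 2.49. Abca1 fell at both times (-1.2 at ZT4 and -3.60 at ZT16), and Insig2 (-1.93 at ZT4 and -1.31 at ZT16). Insig1, unlike the enzymes, was -1.04 at ZT4 and 0.36 at ZT16.

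In endothelial-like cells 9 of 16 enzymes rose from day 0 to day 1 at ZT4 and 11 of 15 at ZT16, with none lower (0.67 [0.48, 0.85] and 0.86 [0.73, 0.98]). Of all genes 16.2% and 15.8% were higher and 28.3% and 27.1% lower. Sqle rose (3.42 at ZT4 and 3.20 at ZT16), Cyp51 (2.20 at ZT4 and 1.62 at ZT16) and Mvd (1.69 at ZT4 and 1.97 at ZT16), while Abcg1 was lower (-1.04 [-3.56, 0.33] at ZT4, where the interval spans 0, and -2.21 [-3.19, -1.48] at ZT16). In dendritic-like cells 10 of 16 rose at ZT4 and 8 of 16 at ZT16, with none lower (1.05 [0.95, 1.15] and 0.91 [0.80, 1.02]), where 18.3% and 16% of all genes were higher and 21.0% and 24.4% lower. Pmvk rose (1.94 at ZT4 and 1.98 at ZT16) and Fdps (1.78 at ZT4 and 1.95 at ZT16).

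From day 1 to day 3 the enzymes fell and the exporters rose in the monocyte-macrophage-like and dendritic-like classes, though not in these alone. The 3 carriage and efflux genes, summed, were also higher at ZT4 and ZT16 in fibro-adipogenic-like (0.68 and 1.47), endothelial-like (1.47 and 1.95), mural-like (2.89 and 2.02) and neutrophil-like cells (1.86 and 2.27). In mature muscle-like cells the interval of that sum spanned 0 at both times. In monocyte-macrophage-like cells 11 of 18 enzymes fell and 2 rose at ZT4 (-1.04 [-1.07, -1.0]), and 13 fell and 0 rose at ZT16 (-1.24 [-1.27, -1.2]). Of all genes 19.8% and 18.7% were lower and 28.2% and 27.0% higher. Sqle stood at 25.2 and 24.7 CPM on day 1, and 3.37 and 1.54 CPM on day 3 at ZT4 and ZT16, and fell (-2.90 at ZT4 and -3.99 at ZT16). Cyp51 stood at 77.7 and 56.4 CPM on day 1, and 12.7 and 8.30 CPM on day 3, and fell (-2.61 at ZT4 and -2.76 at ZT16). Abcg1 stood at 13.6 and 16.9 CPM on day 1, and 163 and 264 CPM on day 3, and rose (3.58 at ZT4 and 3.96 at ZT16). In these 3 genes the 2 days did not overlap. Abca1 stood at 93.1 and 65.1 CPM on day 1, and 203 and 288 CPM on day 3, and rose (1.13 at ZT4 and 2.14 at ZT16). Dhcr7 rose by 1.29 at ZT4 and was level at ZT16 (0.01).

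In dendritic-like cells 16 of 18 enzymes fell from day 1 to day 3 at ZT4 and 17 of 17 at ZT16, with none higher (-1.84 [-1.89, -1.78] and -1.48 [-1.54, -1.42]), and 14.7% and 11.3% of all genes were lower and 22.7% and 25.2% higher. Fdps fell (-2.75 at ZT4 and -2.48 at ZT16), Abcg1 rose (3.09 at ZT4 and 3.28 at ZT16), and Abca1 rose (5.05 [4.04, 6.61] at ZT4 and 6.78 [5.25, 10.15] at ZT16) on no more than 6 UMIs a library on day 1. Those day 1 levels were 1.79% and 0.468% of the highest class, where free RNA and expression cannot be told apart. The number of dendritic-like cells went from 346 and 304 to 1514 and 1025, and those with G2M UMIs from 13 and 31 to 524 and 307.

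Set against uninjured muscle, day 3 gave unlike pictures at the 2 times for the mesenchymal and myogenic classes. In fibro-adipogenic-like cells 12 of 18 enzymes fell and 0 rose at ZT4 (-0.88 [-0.93, -0.83]), whereas 2 fell and 6 rose at ZT16 (0.29 [0.24, 0.35]), the latter sum turning to -0.11 with cells thinned to 1000 UMIs. Of all genes 28.1% and 31.0% were lower and 17.6% and 17.0% higher. Insig1 fell (-2.56 at ZT4 and -0.95 at ZT16), Srebf2 (-1.94 at ZT4 and -0.79 at ZT16) and Sc5d (-2.16 at ZT4 and -2.11 at ZT16), while Abcg1 rose (3.92 at ZT4 and 1.75 at ZT16). In myogenic-like cells 10 fell and 1 rose at ZT4 (-0.38 [-0.45, -0.31]), and 3 fell and 8 rose at ZT16 (0.46 [0.38, 0.54]), of 18 measured both times. Of all genes 35.9% and 31.1% were lower and 29.4% and 30.3% higher.

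Insig1, Insig2, Scd1 and Abca1 fell at both times in myogenic-like cells between day 0 and day 3. Insig1 fell (-3.70 at ZT4 and -1.71 at ZT16), Insig2 (-2.24 at ZT4 and -2.22 at ZT16), and Scd1 (-2.60 at ZT4 and -2.45 at ZT16). Abca1 fell (-0.72 at ZT4 and -3.21 at ZT16). Median depth of these cells was 5589 and 6762 UMIs on day 0 and 44245.5 and 41914 on day 3, and its part in the result was not tested.

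Resident macrophage-like cells had less sterol enzyme RNA on day 3 than on day 0 at both times, with 13 of 18 lower and 0 higher at ZT4 (-0.62 [-0.70, -0.54]) and 9 of 17 lower and 1 higher at ZT16 (-0.55 [-0.65, -0.45]). Of all genes 24.1% and 21.4% were lower and 11.0% and 9.21% higher. Sqle fell (-2.65 at ZT4 and -2.54 at ZT16), while Abcg1 rose (3.18 at ZT4 and 2.10 at ZT16), Abca1 (1.21 at ZT4 and 1.09 at ZT16) and Scd2 (1.04 at ZT4 and 1.65 at ZT16). This class had 1103 and 726 cells on day 0 and 829 and 768 on day 3. It joins a cluster of 1685 cells led by Ccl8, Cbr2 and Folr2, one of 1100 led by Cd209g, Timd4 and Cd209f, and one of 731 led by Retnla, Ear2 and Lyz1. The share of each cluster on each day is not given here, so these values cannot be read as 1 population followed over time.

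The other day comparisons are given by the summed enzymes. From day 0 to day 1 mature muscle-like cells went from 149.5 to 149 CPM at ZT4 (0.01 [-0.35, 0.33]) and from 145 to 137 CPM at ZT16 (-0.07 [-0.39, 0.22]), and resident macrophage-like cells from 282 to 292 CPM at ZT16 (0.05 [-0.17, 0.26]), all with intervals that span 0. B cell-like cells went from 217 to 385 CPM at ZT4 (0.83 [0.37, 1.28]). From day 1 to day 3 the sum was lower at both times in fibro-adipogenic-like (-1.18 [-1.26, -1.09] and -1.19 [-1.26, -1.12]), mural-like (-2.86 [-3.32, -2.46] and -2.74 [-3.05, -2.47]) and endothelial-like cells (-0.78 [-1.04, -0.52] and -0.96 [-1.24, -0.70]). It was also lower at ZT16 in resident macrophage-like (-0.60 [-0.81, -0.38]), T cell-like (-0.43 [-0.79, -0.04]) and neutrophil-like cells (-0.37 [-0.75, -0.03]). The interval spanned 0 in neutrophil-like cells at ZT4 (0.15 [-0.10, 0.39]) and in mature muscle-like cells at ZT4 and ZT16 (0.33 [-0.14, 0.81] and -0.24 [-0.76, 0.26]). From day 0 to day 3 the sum was lower at both times in dendritic-like cells (-0.79 [-0.88, -0.69] and -0.58 [-0.68, -0.47]) and lower at ZT4 in mural-like cells (-1.08 [-1.53, -0.69]). The interval spanned 0 in mural-like cells at ZT16 (-0.01 [-0.32, 0.27]), in T cell-like cells at ZT4 (0.10 [-0.25, 0.44]), and at both times in endothelial-like (-0.11 [-0.32, 0.09] and -0.10 [-0.37, 0.14]) and mature muscle-like cells (0.34 [-0.03, 0.67] and -0.31 [-0.75, 0.08]).

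**Figure D5:**
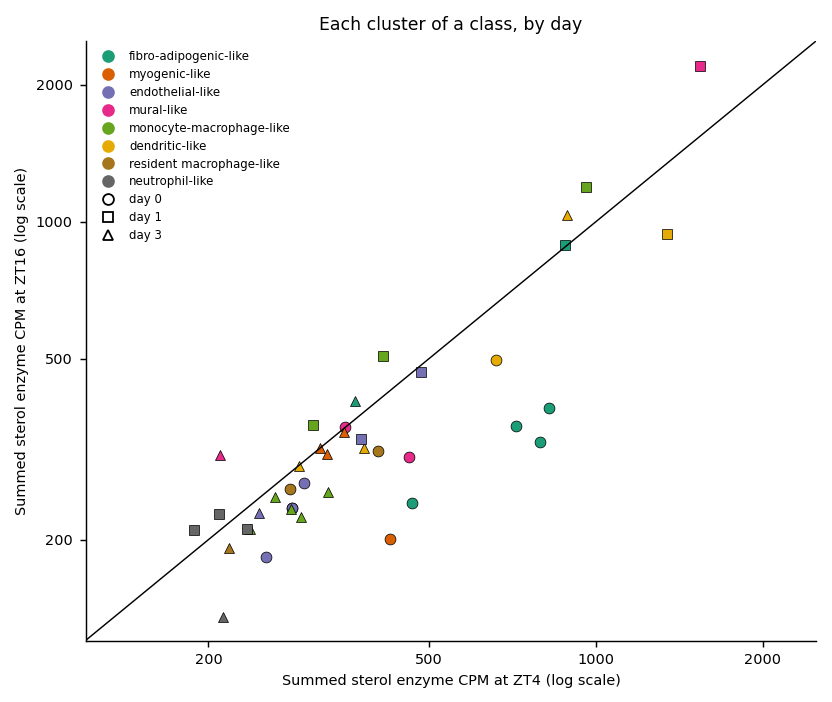
Each symbol is 1 cluster with at least 50 cells in both libraries of a day, placed by its summed sterol enzyme CPM at ZT4 (x) and ZT16 (y) on log axes, coloured by class and shaped by day, with the line of equality. The 4 fibro-adipogenic-like and the myogenic-like symbols of day 0 lie well below the line, and the 3 monocyte-macrophage-like symbols of day 1 lie above it.

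Levels also differed by cell class in ways the days did not remove. Stard4 was highest in endothelial-like cells in all 6 libraries, at 61.4 and 44.7 CPM on day 0, 52.3 and 41.2 CPM on day 1, and 61.2 and 51.2 CPM on day 3 at ZT4 and ZT16. In fibro-adipogenic-like cells it was 21.0 and 9.73 CPM on day 0, 30.5 and 21.5 CPM on day 1, and 12.1 and 12 CPM on day 3. Scd2 was 301 and 339.6 CPM on day 0 in glial-like cells, against 196 and 187 CPM on day 0 in fibro-adipogenic-like and 20.3 and 31.0 CPM on day 0 in endothelial-like cells. The 6 fatty acid genes summed to 4.43 and 4.66 CPM in mature muscle-like cells of day 0, while the 18 sterol enzymes stood at 149.5 and 145 CPM there. Fdft1 alone was 42.0 and 37.9 CPM on day 0 in mature muscle-like cells, the highest of the day 0 classes, though whether these are whole cells was not tested. In neutrophil-like cells of day 1 the enzymes summed to 207 and 219 CPM, the lowest of that day after mature muscle-like cells among the classes compared between the times.

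Apart from the levels given as shares of the highest class in the text, these named levels were under 10% of it in at least 1 of the libraries compared. They were, on day 0, Mlxipl and Ch25h in fibro-adipogenic-like, Fads1 in myogenic-like, Apoe, Mylip and Scd2 in dendritic-like, Cyp51, Sqle, Nceh1 and Scd2 in endothelial-like, Scd2 in resident macrophage-like and Scap in mature muscle-like cells. After injury they were Abcg1 on days 1 and 3 and Abca1 on day 3 in fibro-adipogenic-like, Apoe on day 1 in dendritic-like, Cyp51 and Sqle on day 1 in endothelial-like and Idi1 on day 1 in neutrophil-like cells. On day 3 they were also Mlxipl, Hsd17b7 and Sqle in monocyte-macrophage-like, Ch25h and Sqle in resident macrophage-like and Sqle in mural-like cells. At such levels free RNA and expression cannot be told apart.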

How the data were processed

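The unit is the UMI count: the authors deposited 6 filtered gene-by-cell tables of raw counts, made with Cell Ranger 6.1.2 per the file headers, whereas Cell Ranger 1.0.0 and mm10 stand in the submitters' processing notes. With the annotation release not given in the sources used here, gene positions come from GENCODE vM21 records found for 32 of 32 members.

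Cells were kept that had 200 or more genes, 500 or more UMIs and a mitochondrial share of no more than 10%. Likely doublets, the highest scrublet scores, were removed at a rate of 0.8% for every 1000 barcodes in the library. With scanpy 1.11.5, 2000 variable genes, 30 components and 15 neighbours gave Leiden clusters (leidenalg 0.10.2, resolution 1.0). Clusters of at least 100 cells that got no name were divided once, at resolution 0.5. A name needed at least 3 markers that were at least 2-fold higher and in at least 10% of cells. UMIs were summed per class and library. Log2 ratios had 0.5 UMI added, and intervals are exact conditional binomial 95% intervals (scipy 1.17.1). The calculation was tested on simulated data with known fold changes.

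Named for each comparison were up to 10 members and 5 other pathway genes past 1.5-fold with an interval that excludes 0, farthest first, with Insig1 and each role list for every class. The members, lists and comparisons were chosen with earlier results of these data known. Groups follow the labels, 1 library each, and 15 planned and 2 added alternatives were computed.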

Additional observations from a re-analysis of the deposited data

Results flagged for a closer look

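The 4 genes below went opposite ways between ZT4 and ZT16 on 2 days, past 1.5-fold on both and with intervals that exclude 0. They were picked by this rule, and the share of all genes that meet it is not given, so nothing is read from their number. Each value compares 1 library with 1 library, and the difference between the days was not tested. Abca1, the sterol exporter, was higher at ZT16 in fibro-adipogenic-like cells on day 0 (log2 difference 1.29) and lower on day 1 (-1.11). Dhcr7, a late reductase of cholesterol synthesis, was lower at ZT16 in the same class on day 0 (-0.72) and higher on day 3 (0.86). In mural-like cells Fdps, which makes farnesyl pyrophosphate, was lower at ZT16 on day 0 (-0.85) and higher on day 1 (0.73), and Msmo1, a methyl sterol oxidase, was likewise lower on day 0 (-1.10) and higher on day 1 (0.70). The day 1 classes were small, with 90 and 161 fibro-adipogenic-like and 61 and 108 mural-like cells.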

How the results depend on the processing

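No paired analysis was possible because each group has 1 library. Of 20 summary values of the sterol enzymes, those not named here stayed within their counting interval (counts within 1.5 times) under the alternatives computed for them. Differences below are log2 ratios of summed enzymes, ZT16 over ZT4 unless 2 days are given, and the cause of each shift was not tested. With every cell thinned to 1000 UMIs, fibro-adipogenic-like cells gave -1.08 on day 0 (702 and 331 CPM) and -0.37 on day 3, myogenic-like cells -1.21 and -0.12, with 7 enzymes lower on day 0, and monocyte-macrophage-like cells -0.33 on day 3. Day 3 over day 0 was then -0.82 at ZT4 and, in the opposite direction, -0.11 at ZT16 in fibro-adipogenic-like cells, and -0.57 at ZT4 in myogenic-like cells. Day 3 over day 1 in monocyte-macrophage-like cells was -1.12 at ZT4 and -1.39 at ZT16. As a mean over cells, fibro-adipogenic-like cells gave 707 and 310.9 CPM on day 0, -0.18 on day 3 and 0.10 for day 3 over day 0 at ZT16, myogenic-like cells -1.06 on day 0, -0.14 on day 3 and -0.47 for day 3 over day 0 at ZT4, and monocyte-macrophage-like cells -1.17 at ZT4 and -1.40 at ZT16 for day 3 over day 1. Without mitochondrial and ribosomal protein genes, fibro-adipogenic-like cells gave 859.8 and 376 CPM on day 0, and -0.65 at ZT4 and 0.55 at ZT16 for day 3 over day 0. Monocyte-macrophage-like cells then gave -0.30 on day 3 and -0.99 for day 3 over day 1 at ZT4, and mural-like cells 1768 and 2451 CPM on day 1. Centred on the median gene, the difference was -1.24 in fibro-adipogenic-like cells of day 0 and -0.13 in myogenic-like cells of day 3. Without G2M cells it was -1.05 in myogenic-like cells of day 0, -0.53 in those of day 3 and -0.25 in fibro-adipogenic-like cells of day 3. With doublets kept, mural-like cells at ZT16 gave 1754 CPM on day 1 and 2.53 for day 1 over day 0. With free RNA subtracted, fibro-adipogenic-like cells at ZT4 gave 740.7 CPM on day 0, and monocyte-macrophage-like cells of day 1 gave -0.45 when every library was clustered separately.

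Both added alternatives were chosen after seeing the data. Clusters on their own gave -1.27, -1.02, -0.95 and -1.08 in fibro-adipogenic-like and -1.08 in myogenic-like cells of day 0, 0.21, 0.31 and 0.29, the opposite direction, in monocyte-macrophage-like cells of day 1, and -0.37, -0.17, -0.39 and -0.085 in those of day 3. On day 3, 1 fibro-adipogenic-like cluster gave 0.13 and 1 myogenic-like cluster -0.085.

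Of 1429 values that alternatives gave for 118 named differences of single genes, 1349 stayed within the counting interval, 68 left it in the same direction and 12 turned, all with cells thinned to 1000 UMIs. Because thinning leaves fewer UMIs for each gene and no interval is given for these 12, a turned sign does not settle the direction. These were, on day 0, Scd2 in dendritic-like (-0.50), Hsd17b7 in endothelial-like (0.59), Mvk in mature muscle-like (-0.28), Mvk (1.73) and Sqle (0.20) in resident macrophage-like and Srebf1 in tenocyte-like cells (0.38). On day 1 they were Fdft1 (0.57) and Insig1 (0.026) in dendritic-like and Scap in fibro-adipogenic-like cells (0.41), and on day 3 Lss (0.41) and Hsd17b7 (0.53) in monocyte-macrophage-like and Abcg1 in myogenic-like cells (-1.08). With 1 library per group, the depth limits only the counting error, and the spread between animals is unknown.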
